A study of Mus musculus with 15 samples.

Results

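The expression of 10 genes of the hedgehog pathway and of the adrenal capsule was followed in mouse adrenal glands before, at the end of and after treatment with dexamethasone, a synthetic glucocorticoid that lowers pituitary drive and shrinks the adrenal cortex. The genes were chosen by symbol. They are the ligand Shh, the receptor and decoy genes Ptch1 and Hhip, the transducer Smo, the restraining factor Sufu, the transcription factors Gli1, Gli2 and Gli3, and the capsule transcription factors Tcf21 and Nr2f2. These were 10 of 21439 genes measured, and each was read by 1 probe set annotated to its symbol alone. One more probe set carried both Shh and 9530036O11Rik as its symbols and is reported apart.

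RNA of whole adrenal glands was hybridised to 15 one-colour Affymetrix arrays. All mice were wild-type C57BL/6J males labelled as 6 weeks of age, and the treated ones had received dexamethasone in the drinking water for 14 days. Control glands were taken before dexamethasone (4 arrays), withdrawal glands when the drug was stopped (3 arrays), and the other glands on day 3 (4 arrays) and day 7 (4 arrays) after that. The labels list no group kept for the same time without the drug, so in any difference from control the treatment and the time that passed cannot be told apart.

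Hedgehog ligands bind Ptch1, which otherwise holds Smo inactive. Active Smo releases the GLI factors from Sufu, and these switch on targets that include Ptch1, Hhip and Gli1. In the mouse adrenal, Shh is made by outer cortical cells, largely of the zona glomerulosa, and is received by mesenchymal cells of the capsule, which are marked by Gli1 and can give rise to cortical cells.

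Gli2 was higher at withdrawal than in control glands, and Gli2 and Tcf21 were lower on day 3 than at withdrawal. None of the other differences of these genes, over 6 comparisons between groups, passed the test. In that order, the calls held in 3, 2 and 1 of 7 fits that left out an array. Gli2 read at or near the array floor defined below. Each difference is a log2 value ± standard error from limma, fitted to all 15 arrays, with a Benjamini-Hochberg adjusted p over all 21439 genes and a threshold of 0.05. The comparisons that share the withdrawal or the control arrays are not independent of each other.

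Promoters are shown for the 2 genes that passed and for Ptch1, the receptor and pathway target with the next smallest adjusted p. Each sequence is the 250 bases before the start of the transcript in RefSeq's promoter table (GRCm38.p6), on the gene's own strand. For Gli2 and Ptch1 that start lies inside the annotated span of the gene. Capitals mark the GLI core motif ACCACCC or its reverse complement.
Gli2, chr1:119053620-119053869, minus strand: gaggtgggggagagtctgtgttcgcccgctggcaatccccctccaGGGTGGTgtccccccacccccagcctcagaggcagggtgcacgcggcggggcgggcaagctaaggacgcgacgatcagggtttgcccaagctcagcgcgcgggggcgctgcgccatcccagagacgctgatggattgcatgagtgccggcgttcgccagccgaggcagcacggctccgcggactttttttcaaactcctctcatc
Tcf21, chr10:22820144-22820393, minus strand: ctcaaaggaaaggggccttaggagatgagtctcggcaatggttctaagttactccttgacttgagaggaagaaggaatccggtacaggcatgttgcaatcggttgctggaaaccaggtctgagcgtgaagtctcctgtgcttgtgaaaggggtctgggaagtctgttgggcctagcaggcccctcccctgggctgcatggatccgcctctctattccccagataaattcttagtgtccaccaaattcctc
Ptch1, chr13:63565736-63565985, minus strand: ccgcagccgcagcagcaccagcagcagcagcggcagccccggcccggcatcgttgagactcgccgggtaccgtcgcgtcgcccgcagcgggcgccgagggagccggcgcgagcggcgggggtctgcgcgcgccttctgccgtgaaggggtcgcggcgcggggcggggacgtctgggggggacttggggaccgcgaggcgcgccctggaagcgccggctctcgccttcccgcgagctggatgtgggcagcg
RefSeq's table held 8 of the 10 genes; Shh and Gli1 were not among them. Both strands were searched for the GLI consensus GACCACCCA, for its core ACCACCC, which the consensus contains, for the E-box CANNTG, bound by basic helix-loop-helix factors such as Tcf21, and for the nuclear receptor hexamer AGGTCA. Of the 8 promoters, 1 held the core, that of Gli2, from -205 to -199 relative to the start and on the opposite strand; 3.92% of all 32851 promoters in the table held it. The consensus, found in 0.225% of all promoters, and the hexamer, found in 14% of them, matched none of the 8. An E-box lay in the windows of Sufu, Gli3 and Nr2f2, and in 66.2% of all promoters. These matches describe letters, not bound sites.

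The arrays were deposited as RMA-normalised log2 values with array medians between 1.55 and 1.64, and the highest of these medians, 1.64, is taken here as the array floor. Arrays of one group correlated at 0.987 to 0.991 on average. Steroidogenic genes, which define the cortex, were high: the mean log2 level of 5 such genes lay between 8.79 and 9.52 on the 15 arrays. All 6 kidney genes and both fetal zone genes looked at were at the floor. Genes of fat, which lies around the gland, were not: 1 of the 5 measured was at the floor. The array means of these 5 were 4.81 to 5.76 at withdrawal, against 4.77 to 5.24 in control glands, and 4.42 to 5.60 on day 3. None of the 5 passed in these comparisons, with a median difference of 0.48 at withdrawal against control and -0.26 on day 3 against withdrawal. Of 8 capsule and stroma markers, which include Tcf21, Nr2f2 and Gli1, 7 lay above the floor and Gli1 did not. The array means of these 8 were 6.77 to 6.87 at withdrawal, against 6.44 to 6.71 in control glands, and 6.13 to 6.57 on day 3; 1 of the 8, Tcf21 itself, fell on day 3 against withdrawal and none passed at withdrawal against control. The 7 medulla markers measured averaged 9.12 to 9.20 at withdrawal, against 8.56 to 9.0 in control glands, and 1 of them rose. All 8 macrophage markers rose at withdrawal, with array means from 7.00 to 7.55 at withdrawal, against 4.90 to 5.14 in control glands. The 5 steroidogenic markers averaged between 8.79 and 8.94 at withdrawal, against 9.45 to 9.51 in control glands, and 4 of them fell. Over all genes, 4.3% were called in either direction at withdrawal against control and 2.25% on day 3 against withdrawal. In whole glands, a smaller share of one cell type and less RNA per cell of that type cannot be told apart. The part of these shifts in the values that follow was not tested.

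**Figure D1:**
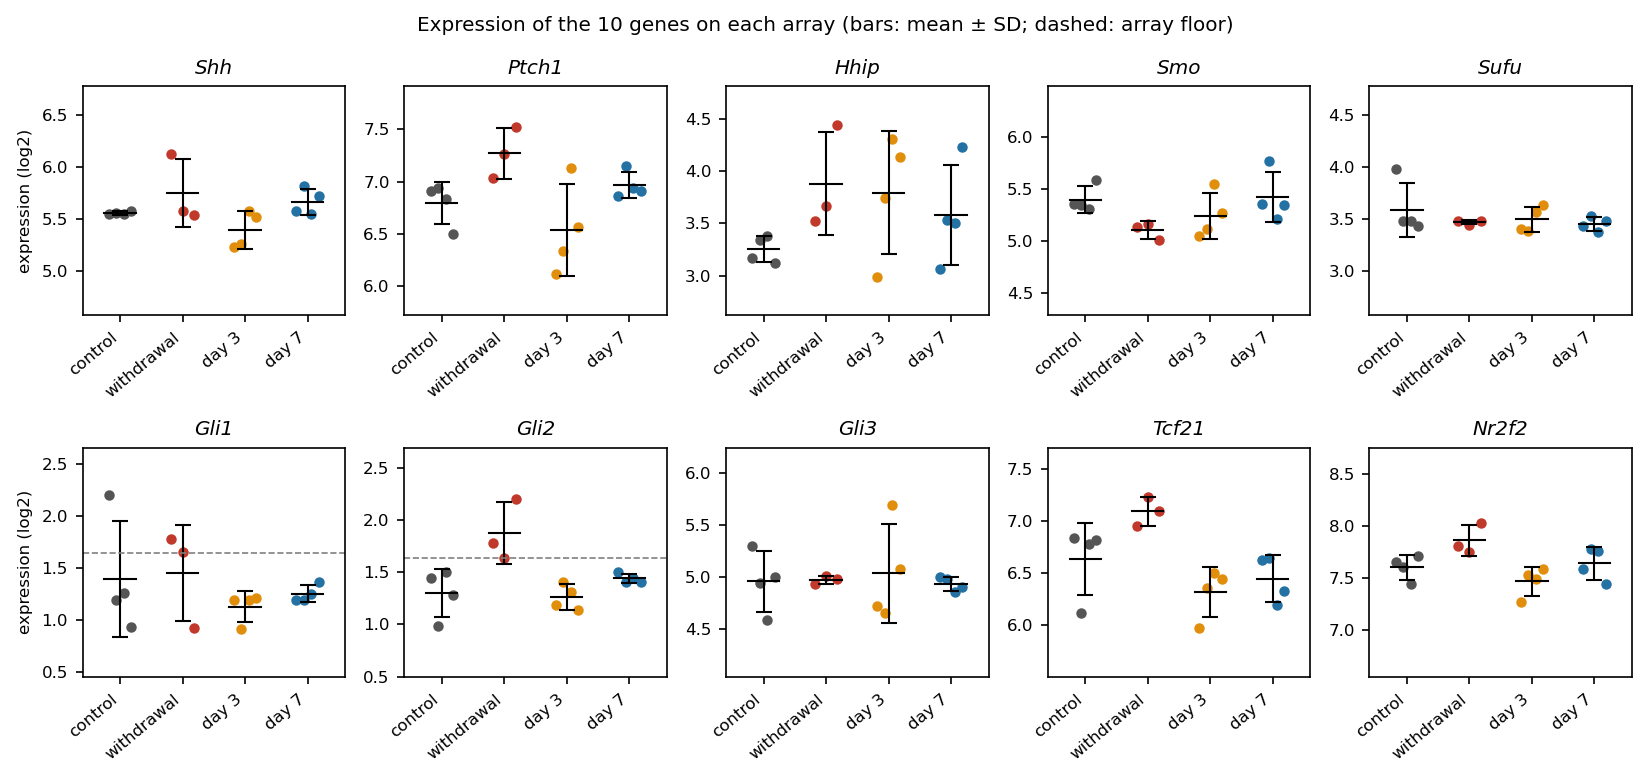
Log2 expression of the 10 genes on each of the 15 arrays, by group from control through withdrawal, day 3 and day 7; each point is 1 array, bars show group means and SD and the dashed line is the array floor at 1.64. The group means of Gli1 lie under the floor in all 4 groups, with 1 control and 2 withdrawal arrays above it, and the 3 withdrawal arrays of Gli2 lie above all 4 control arrays.

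Of the 10 genes, 8 lay above the floor on every array. Gli1, the amplifying GLI factor and the usual readout of hedgehog signalling, had group means at the floor in all 4 groups. Its control arrays read 2.20, 1.20, 1.26 and 0.93, its withdrawal arrays 1.78, 1.65 and 0.93, its day 3 arrays 1.20, 0.91, 1.20 and 1.21, and its day 7 arrays 1.20, 1.20, 1.25 and 1.37. It stood at or under the floor on 3 of 4 control arrays, 1 of 3 withdrawal arrays and all arrays of day 3 and day 7. A fall of Gli1 would have had no room on these arrays, and no statement on its direction can be drawn. Gli2, the main activator among the GLI factors, was at the floor in control, day 3 and day 7 glands and near it at withdrawal.

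Shh, the ligand, passed the test in none of the 6 comparisons. Its arrays read 5.55, 5.56, 5.55 and 5.58 in control glands, 6.13, 5.58 and 5.54 at withdrawal, 5.23, 5.26, 5.58 and 5.52 on day 3, and 5.58, 5.82, 5.55 and 5.73 on day 7. One withdrawal array stood above all others, and day 3 replicates 1 and 2 stood below all others. The difference was 0.19 ± 0.14 at withdrawal against control (95% interval -0.10 to 0.48, adjusted p = 0.536) and -0.35 ± 0.14 on day 3 against withdrawal (-0.64 to -0.06, adjusted p = 0.245). Without withdrawal replicate 1 these were 0.00 (adjusted p = 0.994) and -0.16 (adjusted p = 0.63), so both sizes rested largely on that array.

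The probe set annotated to both Shh and 9530036O11Rik gave a partly different picture. It read 6.05, 5.91, 5.81 and 5.41 in control glands, 6.08, 6.30 and 6.13 at withdrawal, 5.40, 5.36, 6.05 and 5.89 on day 3, and 5.64, 6.06, 5.76 and 6.01 on day 7. All 3 withdrawal arrays lay above the control arrays and above the day 3 arrays, and day 3 replicates 1 and 2 were again the lowest of their group. Tested among all 32736 probe sets, an analysis added after the data were seen, its difference was 0.37 ± 0.19 at withdrawal against control (adjusted p = 0.393) and -0.49 ± 0.19 on day 3 against withdrawal (adjusted p = 0.282). The 2 probe sets thus differed at withdrawal, where 1 of 3 arrays was high in the first and 3 of 3 in the second, and neither passed the test. Which transcript the second one reads was not tested.

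**Figure D2:**
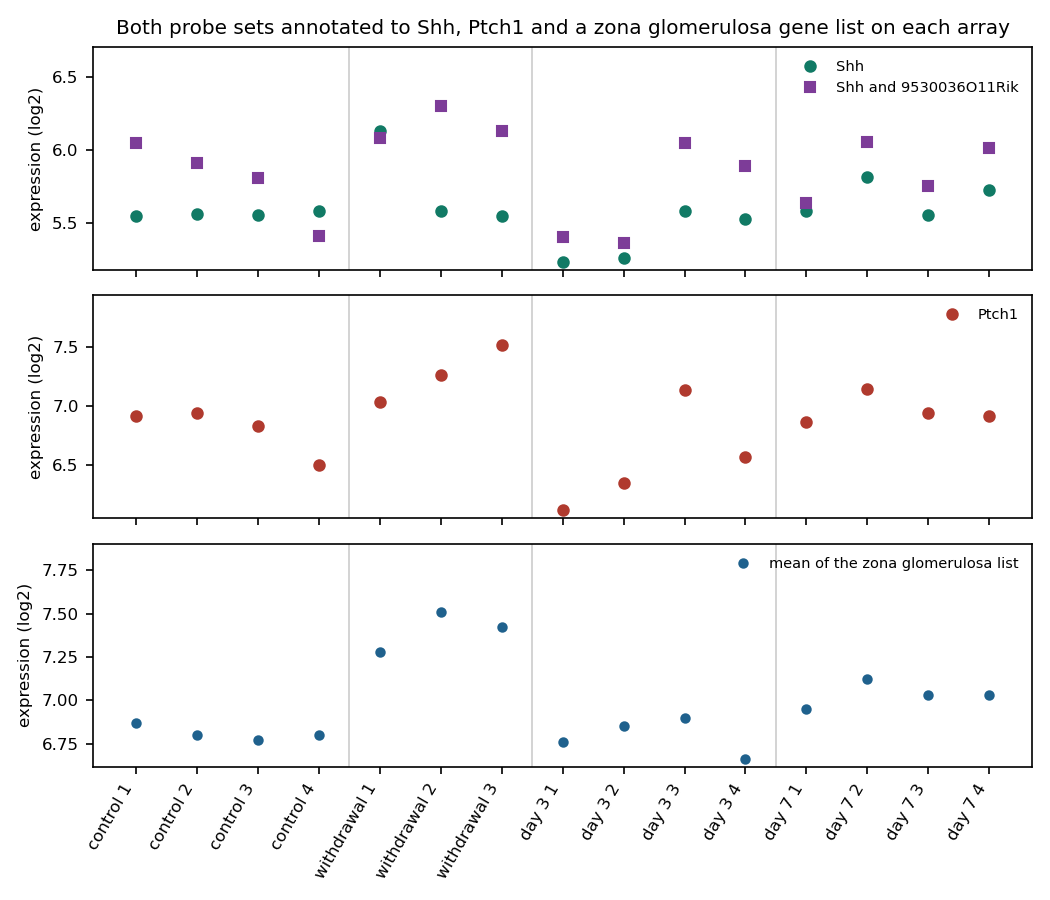
Log2 expression by array, with the groups set apart by vertical lines. The top panel shows both probe sets annotated to Shh, the middle panel Ptch1, and the bottom panel the mean of 11 zona glomerulosa genes; on day 3, replicates 1 and 2 are the lowest of their group in the upper and middle panels but not in the bottom one.

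Ptch1, the hedgehog receptor and itself a target of the pathway, was highest at withdrawal and lowest on day 3, with neither difference past the threshold. Its arrays read 6.91, 6.94, 6.83 and 6.50 in control glands, 7.04, 7.26 and 7.52 at withdrawal, 6.11, 6.34, 7.13 and 6.56 on day 3, and 6.86, 7.15, 6.94 and 6.91 on day 7. The 3 withdrawal arrays lay above the 4 control arrays. Day 3 replicate 3 lay within the withdrawal range, while the other day 3 arrays lay below it. At withdrawal against control the difference was 0.48 ± 0.20 (1.39-fold, 95% interval 0.06 to 0.90, adjusted p = 0.22). Between day 3 and withdrawal it was -0.74 ± 0.20 (-1.16 to -0.32, adjusted p = 0.0706), and without day 3 replicate 3 it was -0.94 and passed the test (adjusted p = 0.00934). That second difference also passed with trend and robust options (adjusted p = 0.0422) and when dim genes were left out (adjusted p = 0.0478). Of the fits that left out an array, 1 of 7 passed, and without withdrawal replicate 3 the adjusted p was 0.228. The adjusted p was 0.107 with the replicate number as a block, 0.235 with the 2 groups' arrays alone and 0.106 with all probe sets tested. On day 7 against day 3 Ptch1 differed by 0.43 ± 0.18 (0.04 to 0.82, adjusted p = 0.661).

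Hhip, which encodes a membrane decoy that binds hedgehog ligands and is also a pathway target, had its lowest mean in control glands. It read 3.17, 3.34, 3.38 and 3.13 in control glands, 3.52, 3.67 and 4.45 at withdrawal, 2.99, 3.74, 4.31 and 4.14 on day 3, and 3.06, 3.53, 3.50 and 4.23 on day 7. All withdrawal arrays lay above the control arrays, and the day 3 and day 7 arrays overlapped with both. The difference at withdrawal against control was 0.63 ± 0.31 (95% interval -0.03 to 1.28, adjusted p = 0.322), and without withdrawal replicate 3 it was 0.34 (adjusted p = 0.707). On day 3 against control it was 0.54 ± 0.28 (-0.07 to 1.15, adjusted p = 0.564). Hhip had the widest spread of the 10 genes after dexamethasone, with an SD of 0.50 at withdrawal, 0.59 on day 3 and 0.48 on day 7, against 0.13 in control glands.

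Smo, the transducer that Ptch1 holds back, ran the other way at withdrawal. It averaged 5.11 ± 0.08 at withdrawal (SD, n = 3) and 5.40 ± 0.13 in control glands (SD, n = 4), with no overlap between the arrays. The difference was -0.29 ± 0.14 (95% interval -0.59 to 0.01, adjusted p = 0.305). On day 7 Smo averaged 5.42 ± 0.24 (SD, n = 4), 0.32 ± 0.14 above withdrawal (0.02 to 0.61, adjusted p = 0.332), again with no overlap. Sufu, which holds GLI factors back in the cytoplasm, had group means between 3.45 and 3.59. Its largest difference, -0.14 on day 7 against control (adjusted p = 0.927), came to -0.01 without control replicate 1, whose reading of 3.98 stood apart from 3.43 to 3.48 on the other control arrays.

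Gli2 passed the test in 2 comparisons. Its arrays read 1.44, 0.99, 1.50 and 1.28 in control glands, 1.78, 1.63 and 2.20 at withdrawal, 1.19, 1.41, 1.31 and 1.13 on day 3, and 1.50, 1.41, 1.44 and 1.41 on day 7. All 3 withdrawal arrays lay above every array of the other groups, and 1 of the 3 was at or under the floor. Gli2 averaged 1.87 ± 0.30 at withdrawal (SD, n = 3) and 1.30 ± 0.23 in control glands (SD, n = 4), a difference of 0.57 ± 0.14 (1.48-fold, 95% interval 0.27 to 0.87, adjusted p = 0.0332). On day 3 it averaged 1.26 ± 0.12 (SD, n = 4), -0.61 ± 0.14 from withdrawal (1.53-fold lower, -0.92 to -0.31, adjusted p = 0.0344). On day 7 it averaged 1.44 ± 0.04 (SD, n = 4), -0.43 ± 0.14 from withdrawal (-0.73 to -0.13, adjusted p = 0.155). Since the groups beside withdrawal lie at the floor, these sizes compare a low level with levels the arrays cannot resolve. The standard errors and calls rest on a spread pooled over the 4 groups, those at the floor included. The SD of Gli2 ran from 0.04 on day 7 to 0.30 at withdrawal.

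Both Gli2 calls depended on single arrays. The higher level at withdrawal missed the threshold without control replicate 2 (0.46, adjusted p = 0.077), control replicate 4 (0.56, adjusted p = 0.0736), withdrawal replicate 1 (0.62, adjusted p = 0.0621) or withdrawal replicate 3 (0.40, adjusted p = 0.14). The lower level on day 3 missed it without withdrawal replicate 1 (-0.66, adjusted p = 0.067), withdrawal replicate 3 (-0.45, adjusted p = 0.135), or day 3 replicate 1 (-0.59, adjusted p = 0.085), 3 (-0.63, adjusted p = 0.0615) or 4 (-0.57, adjusted p = 0.0929). The direction was the same in all 14 of these refits, counting those that kept the call. With the 2 groups' arrays alone, the adjusted p was 0.146 at withdrawal against control and 0.124 on day 3 against withdrawal.

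Gli3, the GLI factor that acts mainly as a repressor, had the smallest range of group means of the 10 genes. Its group means were 4.96 ± 0.29 in control glands, 4.98 ± 0.04 at withdrawal, 5.04 ± 0.48 on day 3 and 4.94 ± 0.07 on day 7 (SD, n = 4, 3, 4 and 4). The difference at withdrawal against control was 0.01 ± 0.21, with a 95% interval of -0.42 to 0.45 (adjusted p = 0.983). Day 3 replicate 3, at 5.70, was its highest array. Within the day 3 group this array was the highest for 6 of the 10 genes (Shh, Ptch1, Hhip, Smo, Gli3 and Tcf21) and for the second Shh probe set, and its removal is given above for Ptch1 and below for Tcf21.

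Tcf21, the basic helix-loop-helix factor of capsule mesenchyme, was lower on day 3 than at withdrawal. Its arrays read 6.83, 6.11, 6.78 and 6.81 in control glands, 6.95, 7.23 and 7.09 at withdrawal, 5.98, 6.36, 6.51 and 6.44 on day 3, and 6.63, 6.64, 6.20 and 6.33 on day 7. The withdrawal arrays lay above every other array of the study. On day 3 the mean was 6.32 ± 0.24 (SD, n = 4), against 7.09 ± 0.14 at withdrawal (SD, n = 3), a difference of -0.77 ± 0.18 (1.71-fold lower, 95% interval -1.16 to -0.39, adjusted p = 0.0382). On day 7 the difference from withdrawal was -0.64 ± 0.18 (-1.03 to -0.26, adjusted p = 0.092), and at withdrawal against control it was 0.46 ± 0.18 (0.07 to 0.85, adjusted p = 0.202). Day 3 and control glands differed by -0.31 ± 0.17 (-0.67 to 0.04, adjusted p = 0.572).

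The Tcf21 call on day 3 against withdrawal held in 1 of 7 fits that left out an array, the one without day 3 replicate 3 (adjusted p = 0.0475). Without withdrawal replicate 1, 2 or 3 the difference was -0.84, -0.70 and -0.77 (adjusted p = 0.0685, 0.155 and 0.0984). Without day 3 replicate 1, 2 or 4 it was -0.66, -0.79 and -0.81 (adjusted p = 0.0999, 0.0708 and 0.0639). It also missed the threshold after each array was centred on its median (-0.76, adjusted p = 0.0506) and with the 2 groups' arrays alone (adjusted p = 0.0645).

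Nr2f2, the nuclear receptor COUP-TFII of capsule, stroma and veins, had the highest levels at withdrawal but passed no test. It read 7.66, 7.60, 7.44 and 7.71 in control glands, 7.81, 7.75 and 8.03 at withdrawal, 7.27, 7.53, 7.49 and 7.59 on day 3, and 7.59, 7.78, 7.76 and 7.44 on day 7. The withdrawal arrays lay above all control and day 3 arrays and overlapped with day 7. Its difference was 0.26 ± 0.12 at withdrawal against control (95% interval 0.02 to 0.51, adjusted p = 0.257) and -0.40 ± 0.12 on day 3 against withdrawal (-0.64 to -0.15, adjusted p = 0.101). The 7 endothelial markers, looked at because Nr2f2 also marks veins, averaged 6.44 to 6.57 on the withdrawal arrays, against 6.97 to 7.02 in control glands, with 2 of 7 lower and none higher by the test. Their part in the Nr2f2 values was not tested.

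**Figure D3:**
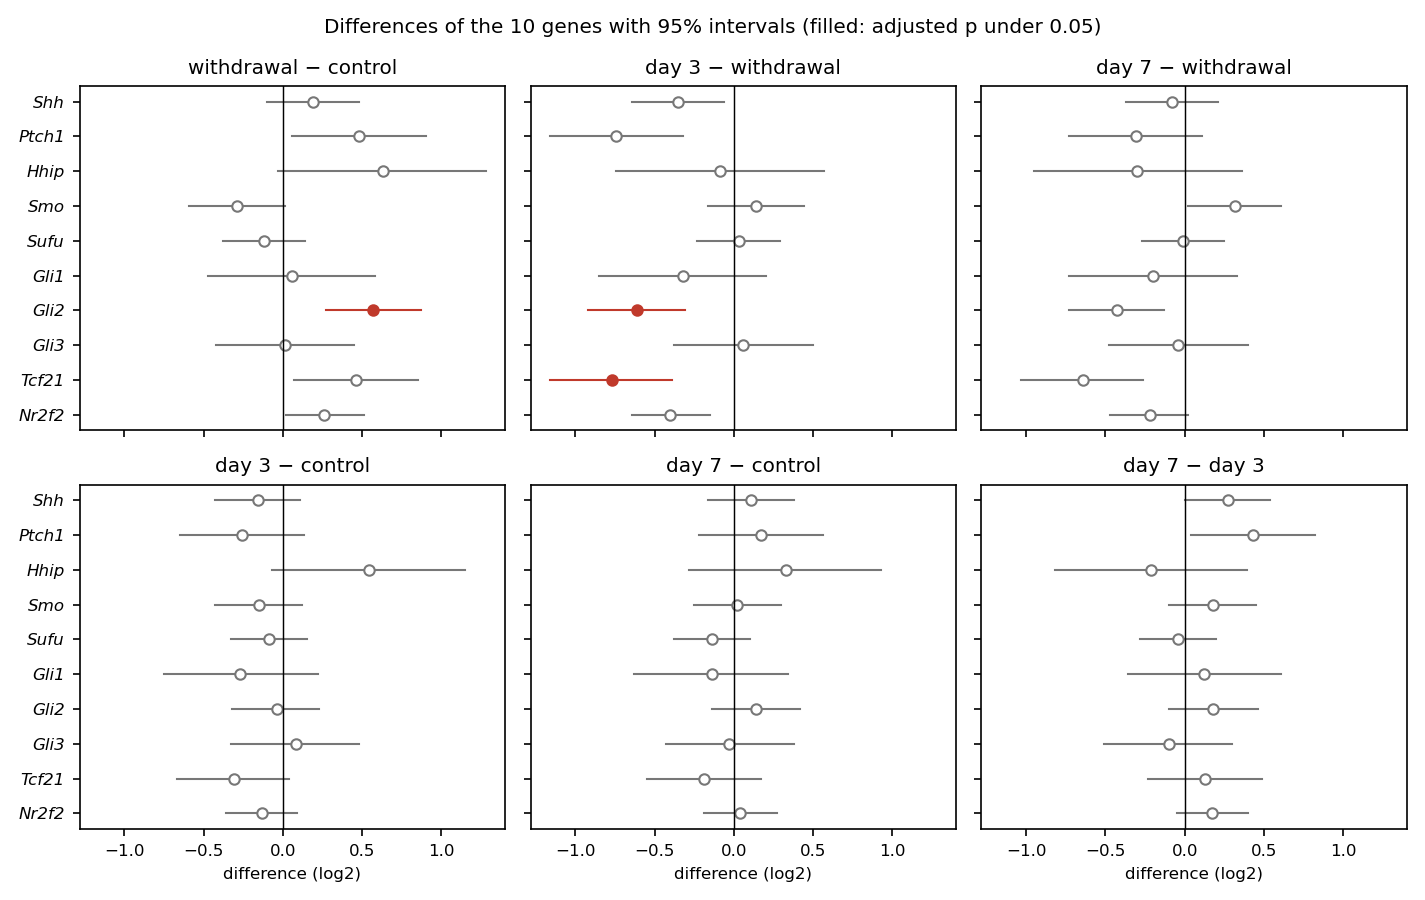
Difference in log2 expression of each gene with its 95% interval from limma, for the 6 comparisons between groups. Filled points mark the 3 differences with an adjusted p under 0.05, Gli2 at withdrawal against control and on day 3 against withdrawal, and Tcf21 on day 3 against withdrawal.

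Counted together at withdrawal against control, 1 of the 10 genes rose and none fell, beside 4.3% of all genes called in either direction and 2.49% called higher. The arrays of the groups did not overlap for 5 genes that were higher (Ptch1, Hhip, Gli2, Tcf21 and Nr2f2) and 1 that was lower (Smo), beside 8.15% and 6.94% of all genes. The median difference of the 10 genes was 0.23, against -0.01 over all genes. Ptch1, Gli2, Tcf21 and Nr2f2, 4 of the 10, were higher at an unadjusted p under 0.05, beside 9.74% of all genes.

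Of the 10 genes, 2 fell on day 3 against withdrawal and none rose, beside 0.886% of all genes called lower and 2.25% called in either direction. The groups did not overlap for 3 that were lower (Gli2, Tcf21 and Nr2f2), beside 5.73% of all genes, and 5 were lower at an unadjusted p under 0.05, beside 7.39%. The median difference was -0.34, against -0.01 over all genes. On day 7 against withdrawal none passed, beside 1.88% of all genes; at an unadjusted p under 0.05, Smo was higher and Gli2 and Tcf21 were lower, beside 13.5% of all genes in either direction. The same 3 genes were those without overlap, beside 12.3% of all genes.

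No difference of these genes between a recovery day and control glands passed the test. On day 3 against control, 0 of 10 passed in limma, beside 0.131% of all genes, and 0 of 10 had an unadjusted p under 0.05, beside 10%. On day 7 against control the counts were also 0 and 0, beside 0.0187% and 5.95%. The interval of Tcf21 on day 7 against control, -0.55 to 0.17, still allowed a sizeable difference. On day 7 against day 3, 0 of 10 passed, as did 0% of all genes, and Shh and Ptch1 were higher at an unadjusted p under 0.05, beside 7.07% of all genes.

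In the order of the 4 group means, 6 of the 10 genes were highest at withdrawal and lowest on day 3 (Shh, Ptch1, Gli1, Gli2, Tcf21 and Nr2f2), as were 9.83% of all genes. Hhip was highest at withdrawal and lowest in control glands. Smo was lowest at withdrawal and highest on day 7. For Sufu and Gli3 the 4 means spanned 0.14 and 0.10, with no pair of groups separated beyond its spread. The order is not resolved for all of the 6. For Gli1 it lies within the floor, and Gli2 was at the floor in control, day 3 and day 7 glands, so its lowest group has no meaning. Without withdrawal replicate 1, Shh averaged 5.56 at withdrawal and was highest on day 7, at 5.67.

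Few other genes of the pathway, taken from lists, passed the test. Of 8 genes for ligands and their release and transport, 3 were at the floor, including the other ligands Ihh and Dhh, and none passed in any comparison. Of 8 co-receptor and receptor genes, none passed at withdrawal against control, where 8 of 8 means were higher, as were 48.7% of all genes, with a median difference of 0.23, against -0.01 over all genes. On day 3 against withdrawal 1 gene of that list fell, beside 0.886% of all genes called lower. It was Gpc3, a glypican that binds hedgehog ligands. It read 6.69, 7.02, 7.42 and 7.13 on day 3, against 7.64, 7.54 and 7.76 at withdrawal, with no overlap and a difference of -0.58 ± 0.14 (adjusted p = 0.0467). That call held in 1 of 7 fits that left out an array, and without withdrawal replicate 3 the adjusted p was 0.152. It was also lost after median centring (adjusted p = 0.0779), with the 2 groups' arrays alone (0.185) and with all probe sets tested (0.0711). None of 18 intracellular and ciliary regulators passed in any comparison.

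Of 12 known hedgehog targets beside Ptch1, Hhip and Gli1, 4 were at the floor. At withdrawal against control 1 of the 12 rose, beside 2.49% of all genes called higher. It was Osr1, a zinc finger transcription factor of mesenchyme. Osr1 read 5.18, 4.81 and 3.91 at withdrawal, against 3.27, 4.16, 3.36 and 3.81 in control glands, so that 1 withdrawal array lay within the control range. The difference was 0.98 ± 0.26 (adjusted p = 0.0441) and was 0.71 without withdrawal replicate 1 (adjusted p = 0.188); it held in 2 of 7 such fits. The call was also lost after further quantile normalization (adjusted p = 0.0765), with the 2 groups' arrays alone (0.169) and with all probe sets tested (0.07).

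Among 21 capsule and stromal progenitor genes the median difference was 0.13 at withdrawal against control, against -0.01 over all genes, and 1 of them fell, beside 4.3% of all genes called in either direction. On day 3 against withdrawal the median was -0.035, and 1 of them rose, beside 2.25%. These counts are near the shares over all genes. The gene that fell was Fgfr1, a fibroblast growth factor receptor, with 6.00, 5.40 and 5.84 at withdrawal, against 6.42, 6.52, 6.37 and 6.14 in control glands (-0.61 ± 0.14, adjusted p = 0.0237). The groups did not overlap, and the call held in 3 of 7 fits that left out an array, with -0.44 and an adjusted p of 0.121 without withdrawal replicate 2. It was lost with the 2 groups' arrays alone (adjusted p = 0.0957). The gene that rose was Cd34, a surface marker of stromal progenitors and of endothelium. Its arrays read 7.62, 7.97, 7.60 and 7.82 on day 3, against 7.12, 6.75 and 7.19 at withdrawal, with no overlap (0.73 ± 0.17, adjusted p = 0.0378). Its call held in 0 of 7 fits that left out an array, with adjusted p from 0.0509 to 0.177, and was lost with the 2 groups' arrays alone (0.0705) and with all probe sets tested (0.0596). The 7 endothelial markers, which do not include Cd34, averaged 6.97 to 7.10 on day 3, against 6.44 to 6.57 at withdrawal; their part in the Cd34 values was not tested.

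Genes of the zona glomerulosa, the layer whose cells make Shh, passed the test where Shh did not, and the difference between them and Shh was not tested. Of 11 such genes, 5 rose and none fell at withdrawal against control, with a median difference of 0.63, beside 2.49% of all genes called higher. On day 3 against withdrawal 4 fell and none rose, with a median of -0.59, beside 0.886% of all genes called lower. Of the 11 genes, 1 was at the floor, Ccn3, and Rspo3 is also counted among the capsule genes. The array means of this list were 7.28, 7.51 and 7.42 at withdrawal, against 6.87, 6.80, 6.77 and 6.80 in control glands. On day 3 the list means were 6.76, 6.85, 6.90 and 6.66, and replicates 1 and 2, the lowest for Shh and Ptch1, were not the lowest for the list.

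**Figure D4:**
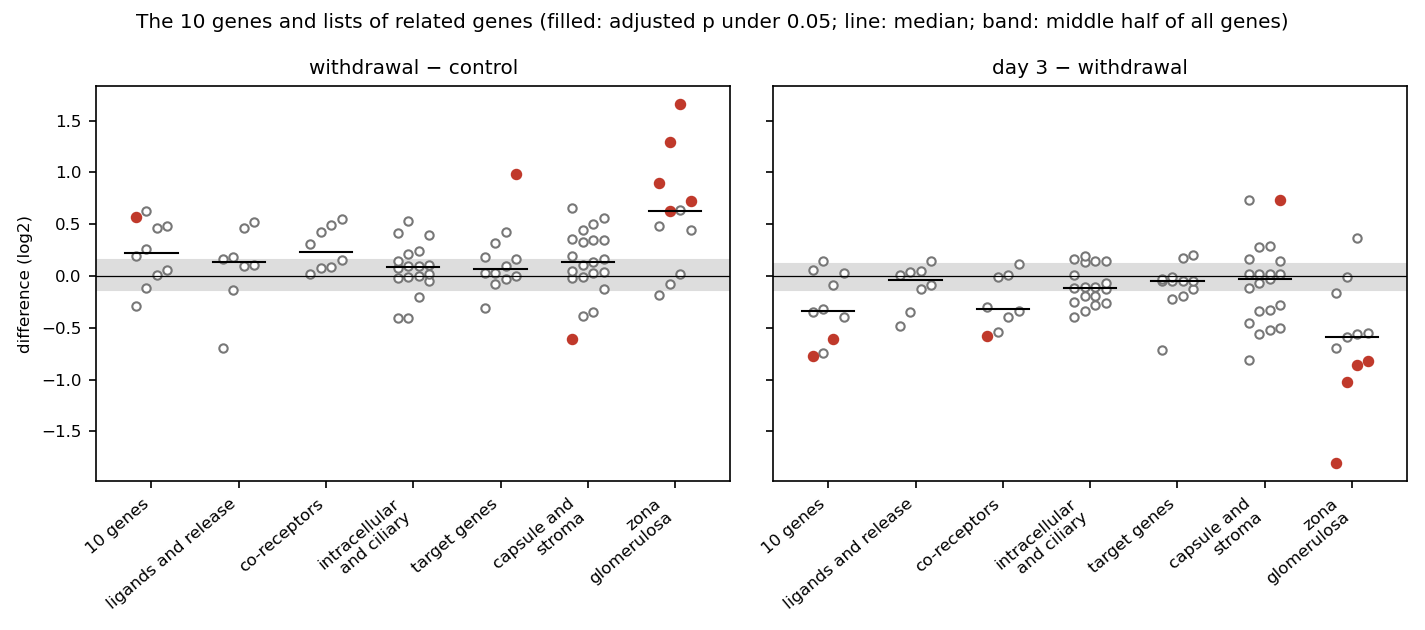
Difference in log2 expression of every gene of each pathway and cell type list at withdrawal against control (left) and on day 3 against withdrawal (right); each point is 1 gene, filled points have an adjusted p under 0.05, lines are medians and the band holds the middle 50% of all genes. The zona glomerulosa genes spread further from 0 than the hedgehog lists.

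The genes whose levels over the 15 arrays were most like those of Tcf21, among 11785 genes compared, were found by Pearson correlation, which is given as a description. The 3 nearest to Tcf21 were Ski (r = 0.883), Lbh (r = 0.873) and Cd52 (r = 0.863). All 3 had their highest group mean at withdrawal, as Tcf21 does, which follows largely from their choice by likeness to it. For Gli2 no such genes are given, since most of its arrays read at or under the floor. Macrophage markers were also highest at withdrawal, and all points share the same arrays and groups.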

How the data were processed

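Expression was measured in whole adrenal glands on 15 arrays in 4 groups given by the sample titles, which call the samples biological replicates. The deposited table holds log2 values made by the authors with RMA (oligo), according to the submitters' processing notes; versions, genome build and filters are not given in the labels or files used here. RMA aims at 1 distribution for all arrays and compresses differences near the floor. The medians of the deposited arrays still ran from 1.55 to 1.64. Depth does not apply to arrays; their number limits the precision.

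Of 32736 probe sets, 22399 carried 1 gene symbol in GEO's platform annotation, 1607 several and 8730 none. Those with 1 symbol were used, keeping the probe set of highest mean for each of 21439 genes. The floor is the highest array median, and "near" means less than 1 above it on the log2 scale. Differences were tested with limma 3.58.1 (lmFit and eBayes, R 4.3.3, statmod 1.5.0) in 1 model of 4 groups, with Benjamini-Hochberg adjustment over all genes. The procedure was tested on simulated data. There, changes of 0.5 log2 were recovered for 32.8% of changed genes at withdrawal against control and 37.3% on day 3 against withdrawal. For changes of 1 log2 the shares were 79.1% and 82.1%. Promoters were read from RefSeq's table (GRCm38.p6). All 10 genes are named in every comparison, and some of the list genes that passed in at least 1 comparison are named. A further list of 7 cortical cell genes is not drawn. Of these, 1 rose and 4 fell at withdrawal against control, beside 4.3% of all genes called in either direction. Ihh and Dhh were named after their values were seen. The 10 genes, the lists and the motifs were chosen with earlier results of these data known. Alternatives were median centring, further quantile normalization, a filter on dim genes, trend and robust options, other choices of probe set, the replicate number as a block, the arrays of only the 2 groups compared, and leaving out each array; testing all probe sets, and running the alternatives for named list genes, were added after seeing the data.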

Additional observations from a re-analysis of the deposited data

Results flagged for a closer look

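Among 33 sets of 4 arrays (each of the 11 probe sets in control, day 3 and day 7 glands), 3 held an array whose gap to its nearest neighbour, as a share of the range of the 4, exceeded Dixon's 95% limit. Chance alone gives about 1 in 20 such sets. Control replicate 1 read 3.975 for Sufu, against 3.43 to 3.48 on the other control arrays. Day 3 replicate 2 read 0.912 for Gli1, which is under the array floor, against 1.20 to 1.21 on the other day 3 arrays. Control replicate 2 read 6.114 for Tcf21, against 6.78 on the nearest control array. Without that array the Tcf21 difference at withdrawal against control was 0.28, and it had not passed with it.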

How the results depend on the processing

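Of the 10 genes, 1 passed at withdrawal against control. The count was 0 with the filter on dim genes (which removed Gli2), the replicate block, the 2 groups' arrays alone or all probe sets of the table (added after seeing the data), and 0 to 1 with 1 array left out. On day 3 against withdrawal 2 passed; it was 1 after median centring, 0 with the replicate block, the 2 groups' arrays alone or all probe sets, and 0 to 2 with 1 array left out. It was 3 with trend and robust options, which added Ptch1 (adjusted p = 0.0422), and 2 with the filter, which removed Gli2 and added Ptch1 (adjusted p = 0.0478). In the other 4 comparisons it was 0 under every alternative run.

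No difference that passed changed sign. Among those that had not passed, further quantile normalization gave -0.06 for Gli3 at withdrawal against control, 0.06 for Sufu on day 7 against withdrawal and -0.02 for Smo on day 7 against control; median centring gave 0.00 for Sufu on day 7 against withdrawal. With 1 array left out, some ranges crossed or reached 0. At withdrawal against control these were 0.00 to 0.29 for Shh and -0.18 to 0.01 for Sufu. In the same comparison they were -0.11 to 0.32 for Gli1 and -0.11 to 0.13 for Gli3. On day 3 against withdrawal they were -0.26 to 0.20 for Hhip, -0.02 to 0.07 for Sufu and -0.16 to 0.19 for Gli3. On day 7 against withdrawal they were -0.19 to 0.11 for Shh and -0.04 to 0.01 for Sufu. They were, on day 3 against control, -0.15 to 0.04 for Sufu, -0.42 to 0.00 for Gli1, -0.15 to 0.02 for Gli2 and -0.14 to 0.21 for Gli3; on day 7 against control, -0.09 to 0.09 for Smo, -0.30 to 0.12 for Gli1, -0.15 to 0.09 for Gli3 and -0.01 to 0.11 for Nr2f2; on day 7 against day 3, -0.08 to 0.00 for Sufu and -0.23 to 0.12 for Gli3. The cause was not tested.

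Of 21 same-number pairs across groups, 0 had deviations that correlated above 0.1 (-0.14 to 0.06). The 4 such pairs of day 3 against control lay between -0.114 and -0.0793. The limit looks at positive correlation only, so it does not settle whether replicate numbers share more than a label. With the replicate number as a block, Gli2 differed by 0.55 at withdrawal against control (adjusted p = 0.0612) and -0.59 on day 3 against withdrawal (adjusted p = 0.0695), and Tcf21 by -0.79 (adjusted p = 0.102). The calls of Gpc3, Osr1 and Cd34 were lost as well (adjusted p = 0.107, 0.0587 and 0.113).

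All-gene counts, in the order withdrawal against control, day 3 and day 7 against withdrawal, day 3 and day 7 against control, were 921, 483, 404, 28 and 4. They were 544, 257, 221, 4 and 0 with the block, and 524, 161, 154, 9 and 0 with the 2 groups' arrays alone. With 1 array left out they ranged over 459 to 774, 209 to 389, 200 to 415, 6 to 27 and 0 to 9, and over 0 to 7 on day 7 against day 3, where the count was 0. On day 3 against control the count was 70 with the filter, 91 with trend and robust options and 10 with all probe sets; on day 7 against control it was 2 and 7 with the last 2. Levels at the floor limit what Gli1 and Gli2 can show.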
